A study of Mus musculus with 28 samples.

Results

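Acta1, Ckm, Myh4, Myh1, Mylpf, Myl1, Tnnt3, Tnni2, Atp2a1 and Pvalb were followed through every fat library of the series. These 10 skeletal muscle genes, out of 55891 gene identifiers in the largest tables, were chosen by name as parts of the fast muscle fibre, with earlier results of these data known, and all 10 are listed in each of the 5 depot tables. A muscle fibre contracts when myosin heavy chains, with their light chains, pull on actin filaments, and troponin opens those filaments to myosin when calcium is released. Fast fibres use their own isoforms of myosin, troponin and the calcium pump, and buffer calcium with parvalbumin. Fat cells build no sarcomere, but subcutaneous fat and the brown fat between the shoulder blades lie against muscle, and brown fat cells share a developmental lineage and several mitochondrial genes with it.

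The study sequenced bulk RNA from fat of mice with an adipose knockout of Fgf13 (Fgf13ΔAdipo, genotype label Fgf13 KO) and of control mice (genotype label WT), in 13 KO and 15 control libraries. Fgf13 encodes an intracellular protein related to the fibroblast growth factors. The knockout was inducible in the ieWAT set (epididymal white fat, 3 KO and 3 control libraries) and the isWAT set (subcutaneous white fat, 2 KO and 3 control), and constitutive in the sWAT set (subcutaneous white fat, 3 KO and 3 control) and the BAT set (brown fat, 2 KO and 3 control). KO and control mice of these 4 sets were alike obese, having eaten high fat diet for 20 weeks. For the eWAT set (epididymal white fat, 3 KO and 3 control) neither the knockout type nor the diet is stated. The sources used here give neither the driver of the deletion nor the age of the mice. Nothing in the labels ties the libraries of a group to different animals, so each p measures only the spread between these libraries, which may be technical.

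Libraries were deeper in the inducible sets, with 29857189 to 43624353 reads for ieWAT and 37700750 to 48812592 for isWAT, than in the constitutive ones, with 13490948 to 21241811 for sWAT and 14951333 to 21246286 for BAT, and the depth of eWAT is unknown. Values are CPM, reads scaled to the library total, in those 4 sets and FPKM, which also divides by gene length, in eWAT. The 5 tables were normalized separately, so levels set side by side across depots are a description. Fgf13 was lower in every KO library than in any control of its depot in ieWAT (22.6 to 33.4 CPM in KO, 39.7 to 51.4 in control), isWAT (31.3 to 35.3 in KO, 53.0 to 69.2 in control), sWAT (43.0 to 84.0 in KO, 106 to 113 in control) and BAT (0.246 to 1.87 in KO, 3.01 to 17.6 in control). In eWAT it was 17.6 to 27.0 FPKM in the libraries labelled KO and 12.9 to 27.6 FPKM in controls, so that set carries its knockout by label only. Markers matched the fat labels: the adipocyte hormone gene Adipoq was at least 411.5 CPM or FPKM in every library of the 5 sets, and the brown fat uncoupler Ucp1 was 4950 to 7238 CPM in BAT libraries and at most 7.13 CPM or FPKM elsewhere.

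The start regions of 5 of these genes are shown because their levels differ below: Ckm and Myh4 were at or near 0 in most fat libraries, Myh1 was low but had reads in all of them, and Acta1 and Myl1 had the higher levels in white fat. Each run is 300 bases of the RefSeq promoter table (assembly GRCm38.p6), written 5′ to 3′ on the gene's strand, from 250 bases before to 50 after the start, and 8 of the 10 genes are in that table. Capitals mark TATAAA (the core of a TATA box), CAGCTG (an E-box of the form bound by myogenic factors), and matches to the MEF2 and CArG motifs of muscle genes, each searched on both strands. A TATAAA can lie within a MEF2 match.
Acta1, skeletal muscle actin, chr8:123894726-123895025, minus strand: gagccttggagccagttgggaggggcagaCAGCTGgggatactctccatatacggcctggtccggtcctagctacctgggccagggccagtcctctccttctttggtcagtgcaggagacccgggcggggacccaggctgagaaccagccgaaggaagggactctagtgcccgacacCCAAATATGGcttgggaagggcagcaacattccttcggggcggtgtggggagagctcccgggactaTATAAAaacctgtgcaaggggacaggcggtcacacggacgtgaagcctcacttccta
Ckm, muscle creatine kinase, chr7:19410844-19411143, plus strand: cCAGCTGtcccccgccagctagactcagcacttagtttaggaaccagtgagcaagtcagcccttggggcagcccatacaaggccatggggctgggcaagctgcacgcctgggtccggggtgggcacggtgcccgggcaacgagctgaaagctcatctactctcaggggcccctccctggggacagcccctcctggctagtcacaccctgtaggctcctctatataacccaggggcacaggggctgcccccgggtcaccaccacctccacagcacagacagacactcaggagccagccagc
Myh4, the IIb myosin heavy chain, chr11:67237562-67237861, plus strand: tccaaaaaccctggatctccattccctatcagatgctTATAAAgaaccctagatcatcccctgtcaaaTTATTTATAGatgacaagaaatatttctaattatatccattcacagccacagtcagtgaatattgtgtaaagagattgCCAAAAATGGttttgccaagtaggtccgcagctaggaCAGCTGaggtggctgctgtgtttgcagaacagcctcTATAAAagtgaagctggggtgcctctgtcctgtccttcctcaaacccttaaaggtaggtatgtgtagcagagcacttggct
Myh1, the IIx myosin heavy chain, chr11:67199852-67200151, plus strand: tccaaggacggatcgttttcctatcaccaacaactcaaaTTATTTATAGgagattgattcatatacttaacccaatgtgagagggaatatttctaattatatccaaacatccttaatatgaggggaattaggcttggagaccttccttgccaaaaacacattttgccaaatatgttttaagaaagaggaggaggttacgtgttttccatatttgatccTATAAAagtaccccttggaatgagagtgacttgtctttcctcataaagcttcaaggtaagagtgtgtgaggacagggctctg
Myl1, an essential myosin light chain, chr1:66945007-66945306, minus strand: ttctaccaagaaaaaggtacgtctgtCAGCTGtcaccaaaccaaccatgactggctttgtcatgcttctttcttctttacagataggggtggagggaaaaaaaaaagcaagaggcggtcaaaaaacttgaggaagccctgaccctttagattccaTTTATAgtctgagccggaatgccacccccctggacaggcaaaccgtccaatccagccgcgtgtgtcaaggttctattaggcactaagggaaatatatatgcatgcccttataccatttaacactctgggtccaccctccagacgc
TATAAA was found in 4 of the 8 genes' windows and in 13.62% of all 32851 promoter windows, CAGCTG in 6 of 8 and 16.3%, MEF2 in 3 of 8 and 3.19%, and CArG in 2 of 8 and 1.63%. Myh4 held all 4 motifs and Myh1 held TATAAA and MEF2. Acta1 held all but MEF2, Myl1 held the TATA core and the E-box, and Ckm held the E-box. A match is a run of letters and not a shown binding site.

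In sWAT, 2 of the 3 KO libraries held a fast muscle transcript set that the other 4 libraries lacked. Myh4, the heavy chain of the fastest mouse fibre, was 0, 456 and 568 CPM in KO libraries 1, 2 and 3, against 0, 0.0741 and 0 CPM in the controls. Ckm, which regenerates ATP from phosphocreatine, was 0, 341 and 408 CPM in the KO libraries, against 0, 0.0741 and 0 CPM in the controls. Atp2a1, the fast calcium pump of the sarcoplasmic reticulum, was 0.0541, 314 and 529.8 CPM in the KO libraries, against 0, 0.0741 and 0.0612 CPM in the controls. For all 3 genes KO library 1 lay with the controls, so the groups overlapped. A library with 0 reads still allows up to 3 reads, which is 0.162 CPM in sWAT KO library 1 and 0.141 to 0.222 CPM in the sWAT controls.

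The regulatory parts of the contractile machine followed the same libraries. Tnnt3, the troponin subunit that holds the complex on the thin filament in fast fibres, was 0.108, 228 and 338 CPM in the sWAT KO libraries, against 0.188, 0 and 0.122 CPM in the controls. Tnni2, the inhibitory fast troponin, was 0.216, 119 and 158 CPM in the KO libraries, against 0.518, 0.371 and 0.734 CPM in the controls. Mylpf, the regulatory light chain of fast myosin, was 0.866, 129 and 191 CPM in the KO libraries, against 0.989, 0.89 and 0.428 CPM in the controls. Again KO libraries 2 and 3 stood apart and KO library 1 did not. The reads of all 10 genes together made up 0.0057%, 0.245% and 0.321% of all reads in sWAT KO libraries 1, 2 and 3, against 0.00639%, 0.00632% and 0.00528% in the controls.

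Acta1, Pvalb and Myl1 differed from these genes in having a level in the low libraries as well. Acta1 was 18.1, 479 and 536 CPM in the sWAT KO libraries, against 25.7, 20.3 and 13.8 CPM in the controls. Pvalb, the calcium buffer of fast fibres, was 1.68, 175 and 243 CPM in the KO libraries, against 6.64, 6.08 and 4.16 CPM in the controls. Myl1 was 35.0, 204 and 239 CPM in the KO libraries, against 28.9, 34.2 and 32.3 CPM in the controls. Myl1 was the only one of the 10 whose KO libraries all lay above the controls, KO library 1 just so, where 16.1% of all genes tested in sWAT had groups that did not overlap. Myh1, the heavy chain of IIx fibres, was 1.03, 0.768 and 1.95 CPM in the KO libraries, against 0.989, 1.11 and 1.16 CPM in the controls, so it did not share the high levels of sWAT KO libraries 2 and 3.

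Across the sWAT groups, only Acta1, Pvalb, Myl1 and Myh1 passed the filter and were tested, and none was called. The main fit could not call the other 6, which reached 1 CPM only in KO libraries 2 and 3. Fitted without the filter, those 6 had limma adjusted p values from 0.7761 to 0.7865. In limma's moderated fit on log2(CPM + 1), 0 of the 4 genes that passed the filter on low values were called at an adjusted p of 0.05, against 0.0217% of all 13816 genes tested, and none of the 4 had an unadjusted p under 0.05. EdgeR and DESeq2 on the recovered reads also called 0 of the 4, against 0.0217% and 0.376% of all genes. The fitted KO minus control change was 1.88 for Myl1 (SE 0.77, limma adjusted p = 0.523), 3.06 for Acta1 (SE 1.40, adjusted p = 0.547) and 2.90 for Pvalb (SE 1.85, adjusted p = 0.631), on the log2(CPM + 1) scale, which understates the change of low genes. Without sWAT KO library 1, 9 of the 10 were called higher in the remaining KO libraries, where 0.846% of all genes were called and 0.782% called higher. Of those 9, 6 passed the filter only through the KO libraries in which they were high, so that count is no support. Myh1 was the exception, with a change of 0.13 (SE 0.25, limma adjusted p = 0.88). The limma adjusted p of Myl1 ranged from 1.5e-05 to 0.85 over all settings tried, and its lowest value was the one without KO library 1.

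**Figure D1:**
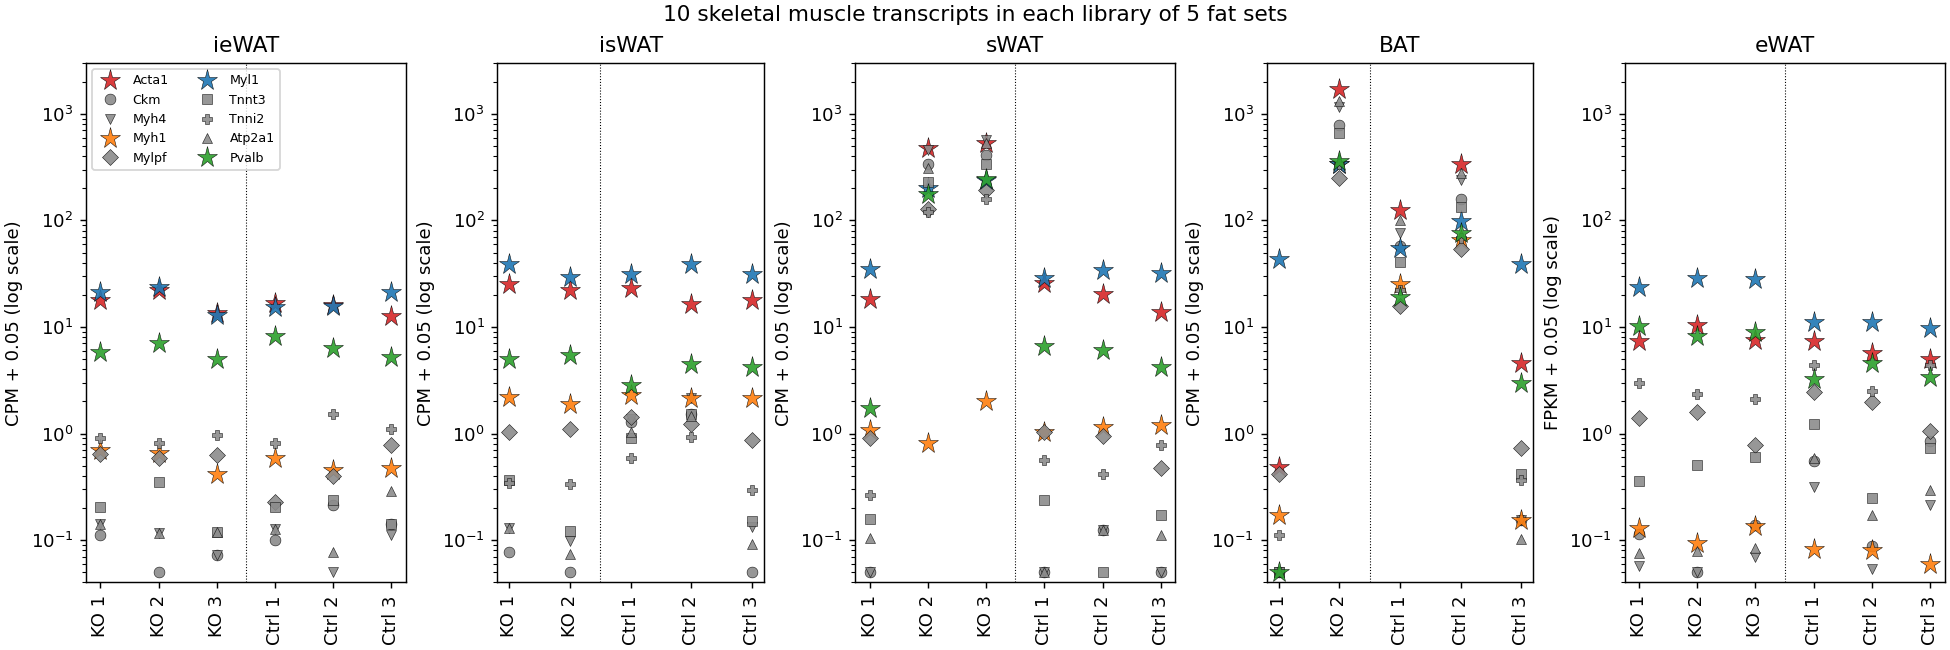
CPM (FPKM in eWAT) plus 0.05 of each of the 10 genes on a log axis in every library, KO libraries left of the dotted line and controls (Ctrl) right of it. Stars mark Acta1, Myl1, Pvalb and Myh1 and grey symbols the other 6 genes. Grey symbols are high in sWAT KO 2 and KO 3, BAT KO 2, BAT control 1 and BAT control 2, while the stars of Myl1 are above 9 in every library.

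In BAT, high levels were found in libraries of both genotypes. Myh4 was 0 and 1156 CPM in KO libraries 1 and 2, against 75.7, 239 and 0.105 CPM in the controls. Acta1 was 0.431 and 1707 CPM in the KO libraries, against 125, 337 and 4.51 CPM in the controls. Atp2a1 was 0 and 1329 CPM in the KO libraries, against 101, 282 and 0.0524 CPM in the controls. For these genes KO library 2 was the highest library, controls 2 and 1 came next, and KO library 1 and control 3 were at the bottom.

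Ckm kept that order at 0 and 782 CPM in the BAT KO libraries, against 57.0, 159 and 0.105 CPM in the controls. Tnnt3 was 0 and 663 CPM in the KO libraries, against 40.8, 135 and 0.367 CPM in the controls. Tnni2 was 0.0615 and 336 CPM in the KO libraries, against 21.98, 68.7 and 0.315 CPM in the controls. Unlike in sWAT, Myh1 was high together with the other genes here. Myh1 was 0.123 and 335 CPM in the KO libraries, against 25.2, 65.6 and 0.105 CPM in the controls. Mylpf was 0.369 and 250.5 CPM in the KO libraries, against 15.7, 53.4 and 0.682 CPM in the controls. Both genes were high in KO library 2 and in controls 1 and 2 and under 1 CPM in the remaining libraries.

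Myl1 and Pvalb parted in the low BAT libraries. Myl1 was 43.7 and 338 CPM in the KO libraries, against 55.4, 99.5 and 38.7 CPM in the controls, so even KO library 1, with 0 reads of Myh4, Ckm, Atp2a1 and Tnnt3, held Myl1 reads, at a level above the 12.9 to 39.3 CPM of white fat libraries other than sWAT KO 2 and KO 3. Pvalb was 0 and 364 CPM in the KO libraries, against 18.9, 76.4 and 2.94 CPM in the controls. Its 0 in KO library 1 allows up to 0.185 CPM, below the 1.68 to 8.27 CPM that Pvalb had in white fat libraries outside sWAT KO 2 and KO 3. Acta1, at 0.431 CPM in KO library 1 and 4.51 CPM in control 3, was likewise under its 12.5 to 25.7 CPM in those white fat libraries.

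The BAT groups of all 10 genes overlapped, where 44.5% of all genes tested in BAT did not. All 10 passed the filter and limma called 0 of them, against 0.00755% of all genes, with 0 at an unadjusted p under 0.05. EdgeR and DESeq2 called 0 as well, against 0.0% and 5.97% of all genes. The changes with the smallest p were 1.02 for Myl1 (SE 1.08, limma adjusted p = 0.605), 0.69 for Mylpf (SE 3.18, adjusted p = 0.915) and 0.64 for Myh1 (SE 3.61, adjusted p = 0.93), KO minus control. Direction in BAT rested on single libraries: without KO library 2 the change was -0.44 for Myl1, -3.07 for Mylpf and -3.47 for Myh1, and without control 3 it was -0.70 for Mylpf and -1.10 for Myh1. The reads of the 10 genes made up 0.00447% and 0.726% of all reads in the BAT KO libraries, against 0.0537%, 0.151% and 0.00479% in the controls.

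The myosin heavy chains gave the fibre type in the 5 libraries with high muscle levels, sWAT KO 2 and KO 3, BAT KO 2 and BAT controls 1 and 2, which were singled out after their values were seen and are described one by one without a test. Among Myh4, Myh1, Myh2 (the IIa chain) and Myh7 (the slow chain), set against each other per kilobase, Myh4 held 99.8% in sWAT KO 2 and 99.6% in sWAT KO 3. Myh1 held 0.17% and 0.34% there and Myh7 had 0 reads in both. The BAT libraries held a mixture. In BAT KO 2, Myh4 held 65.7%, Myh1 18.8%, Myh2 5.84% and Myh7 9.64%. In BAT control 1 the shares were 62.0%, 20.4%, 12.3% and 5.32% in the same gene order, and in BAT control 2 they were 69.0%, 18.7%, 8.34% and 3.97%. All 5 libraries thus held mostly the fast IIb chain, the sWAT libraries almost alone and the BAT libraries with IIx, IIa and slow chains.

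By reads, without division by length, Myh4 took 6538 of 6553 myosin reads in sWAT KO 2 (exact Clopper-Pearson 95% interval 99.6% to 99.9%) and 9041 of 9075 in sWAT KO 3 (99.5% to 99.7%). It took 17289 of 26481 in BAT KO 2 (64.7% to 65.9%), 1608 of 2609 in BAT control 1 (59.7% to 63.5%) and 3808 of 5547 in BAT control 2 (67.4% to 69.9%). The intervals cover counting error within each library only, so they are no test of the sWAT libraries against the BAT libraries. Of all 50-base words in their transcripts, Myh4 shares 18.9% and Myh1 26.7% with other genes, so reads there can be divided between chains with some error.

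**Figure D2:**
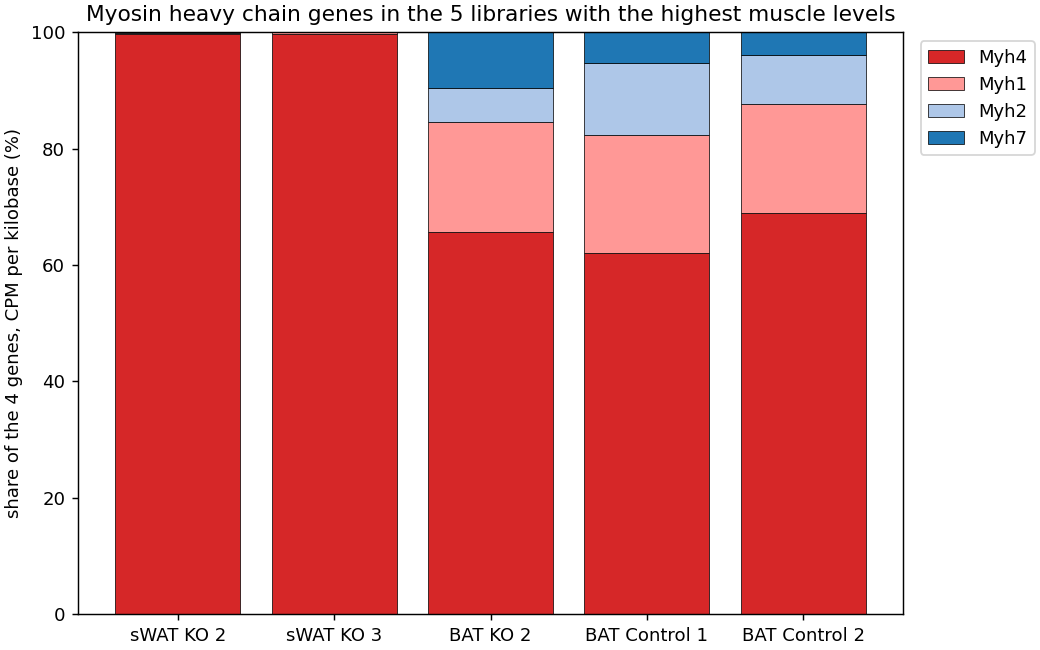
Share of Myh4, Myh1, Myh2 and Myh7 in their sum, in CPM per kilobase, for sWAT KO 2, sWAT KO 3, BAT KO 2, BAT control 1 and BAT control 2. Myh4 fills 99.6% or more of both sWAT bars and 62.0% to 69.0% of the BAT bars.

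The wider list of slow or oxidative fibre genes, which includes Myh2, differed between the depots in the same way. Its 11 genes summed to 7.25, 4.88 and 4.84 CPM in the sWAT KO libraries, against 3.15, 2.89 and 5.08 CPM in the controls. They summed to 5.72 and 780.1 CPM in the BAT KO libraries, against 47.2, 112 and 7.55 CPM in the controls. Mybpc1, the slow myosin-binding protein, led the list in BAT KO 2 at 174 CPM together with Myh7 at 176 CPM, and Tnnt1, the slow troponin T, was 69.8 CPM there. In sWAT KO 2 and KO 3 these 3 genes were at most 0.817 CPM. This list had 1 gene tested in sWAT and 10 in BAT, and 0 were called in either.

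Further genes of the fast fibre stood high in the same libraries. The 21 genes of the fast apparatus list other than Tpm1, a tropomyosin that all white fat libraries also held, summed to 25.2, 834 and 1132 CPM in the sWAT KO libraries, against 31.7, 26.1 and 27.4 CPM in the controls. In BAT they summed to 7.51 and 2252 CPM in the KO libraries, against 161, 490.1 and 13.8 CPM in the controls. Tnnc2, the fast calcium-binding troponin, was 0.703, 141 and 210 CPM in the sWAT KO libraries, against 0.0471, 0.148 and 0.184 CPM in the controls. Actn3, the fast Z-disc actinin, was 0 and 219 CPM in the BAT KO libraries, against 17.04, 50.6 and 0.157 CPM in the controls. With Tpm1 the list has 22 genes; its genes tested numbered 8 for ieWAT, 7 for isWAT, 8 for sWAT, 22 for BAT and 5 for eWAT, and limma called 3 higher in eWAT, where 10.2% of all genes tested were called higher, and 0 in the other sets.

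The satellite cell and myogenic list was low, and the heart list was mixed. The 7 satellite cell and myogenic genes, led by the receptor subunit Chrna1 and the factor Myf6, summed to 0.108, 1.12 and 2.08 CPM in the sWAT KO libraries, against 0.33, 0.0741 and 0.245 CPM in the controls. They summed to 0 and 6.69 CPM in the BAT KO libraries, against 0.235, 1.51 and 0 CPM in the controls. Of the 6.69 CPM in BAT KO 2, Myf6 gave 2.61 and Chrna1 2.34 CPM. Of the heart list, Nppa, the atrial natriuretic peptide gene, had 0 reads in every sWAT and BAT library, and Myh6, the cardiac heavy chain, had 0 CPM in all but BAT KO 2 at 0.268 CPM. Actc1, cardiac actin, was 0.216, 0.349 and 6.35 CPM in the sWAT KO libraries, against 0, 0.0741 and 0.0612 CPM in the controls, and 0.123 and 3.48 CPM in the BAT KO libraries, against 0.471, 0.376 and 0.262 CPM in the controls. Actc1 was thus highest in sWAT KO 3 and BAT KO 2, which were also the highest libraries of their depots for Acta1. Ryr2, the calcium release channel of heart that led this list, was 3.14, 7.12 and 7.17 CPM in the sWAT KO libraries, against 8.52, 12.01 and 9.98 CPM in the controls.

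Each of the 10 genes was also set against the sum of the other 9, which shows whether proportions held from library to library and needs no gene length. In BAT KO 2, control 1 and control 2, whose summed levels were 7261, 537 and 1514 CPM, Ckm stood at 0.121, 0.119 and 0.117 of the others. Atp2a1 stood at 0.224, 0.232 and 0.229, and Acta1 at 0.307, 0.304 and 0.286. Myl1 did not hold its proportion: it stood at 0.0489 in BAT KO 2, 0.115 in control 1 and 0.0703 in control 2, highest where the summed level was lowest. Pvalb went the other way, at 0.0528, 0.0365 and 0.0531 in the same library order. Tnnt3, at 0.101, 0.0822 and 0.098, was also lowest in control 1, as were Mylpf, Myh4 and Tnni2. Myh1 stood at 0.0484, 0.0492 and 0.0453, lowest in control 2. In sWAT KO 2 and KO 3, Ckm stood at 0.162 and 0.146, Atp2a1 at 0.147 and 0.197, and Acta1 at 0.244 and 0.200 of the others. The difference of these values from the BAT ones was not tested.

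In the 17 CPM libraries other than those 5, the genes had different levels. The 5 were set apart by the sum of the 7 genes other than Acta1, Myl1 and Pvalb. That sum was at least 337 CPM in the 5 and at most 10.6 CPM in the 17. Low levels of those 7 genes in the 17 libraries thus followed from the choice. Myl1 was 12.9 to 43.7 CPM and never under 1 CPM. Acta1 was 12.5 to 25.7 CPM and Pvalb 1.68 to 8.27 CPM in the 15 white fat libraries among them. The other 7 genes were at most 2.26 CPM in these libraries. Ckm was at most 1.46 CPM, Myh4 2.11, Atp2a1 1.41, Tnnt3 1.49, Mylpf 1.39 and Tnni2 1.46 CPM in all 17. Ckm was under 1 CPM in 15, Myh4 in 15, Atp2a1 in 16 and Tnnt3 in 16 of these libraries. Myh1 lay between, at 0.105 to 2.26 CPM, and was lowest in the BAT libraries KO 1 and control 3. Which cells gave the Myl1, Acta1 and Pvalb reads was not tested. Of Myl1's 50-base words, 32.1% are shared with its pseudogene Mylf-ps, which had at most 0.314 CPM or FPKM in any library, and the values do not separate the gene's isoforms.

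Genes that muscle and fat cells both use did not follow the muscle genes as a block. In BAT, Cox8b, a respiratory chain subunit, was 928 and 1064 CPM in the KO libraries, against 970.0, 991 and 864 CPM in the controls. Fabp3, a fatty acid carrier, was 974 and 1307 CPM in the KO libraries, against 1023, 1494 and 1253 CPM in the controls. Slc2a4, the insulin-regulated glucose transporter, was 327 and 364 CPM in the KO libraries, against 266, 218 and 178 CPM in the controls, the only one of the 10 genes of this list without overlap in BAT, where 44.5% of all genes tested had none. Atp2a2, the calcium pump of slow muscle and of many other cells, was 222 and 326 CPM in the KO libraries, against 214, 259 and 227 CPM in the controls. These 4 genes, the most abundant of the list by mean over the 22 CPM libraries, were high in KO library 1 and control 3 too, where Ckm was 0 and 0.105 CPM.

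Other genes of that list did track Ckm, and are named after their values were seen. Eno3, the muscle enolase, was 4.31 and 221 CPM in the BAT KO libraries, against 21.6, 44.6 and 4.98 CPM in the controls. Mb, myoglobin, was 7.32 and 267 CPM in the KO libraries, against 31.1, 86.2 and 10.9 CPM in the controls. Ckmt2, the mitochondrial creatine kinase of muscle, was 0 and 86.8 CPM in the KO libraries, against 6.35, 16.1 and 0 CPM in the controls. All 3 were highest in BAT KO 2 and lowest in KO 1 and control 3. In sWAT, Eno3 was 5.63, 96.8 and 97.9 CPM in the KO libraries, against 5.27, 4.37 and 8.08 CPM in the controls, while Mb was 0.108, 1.81 and 0.251 CPM in the KO libraries, against 0.33, 0.148 and 0.0612 CPM in the controls. Mb, a gene of oxidative fibres, was thus near 0 in the same sWAT libraries in which Myh4 held nearly all myosin reads.

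**Figure D3:**
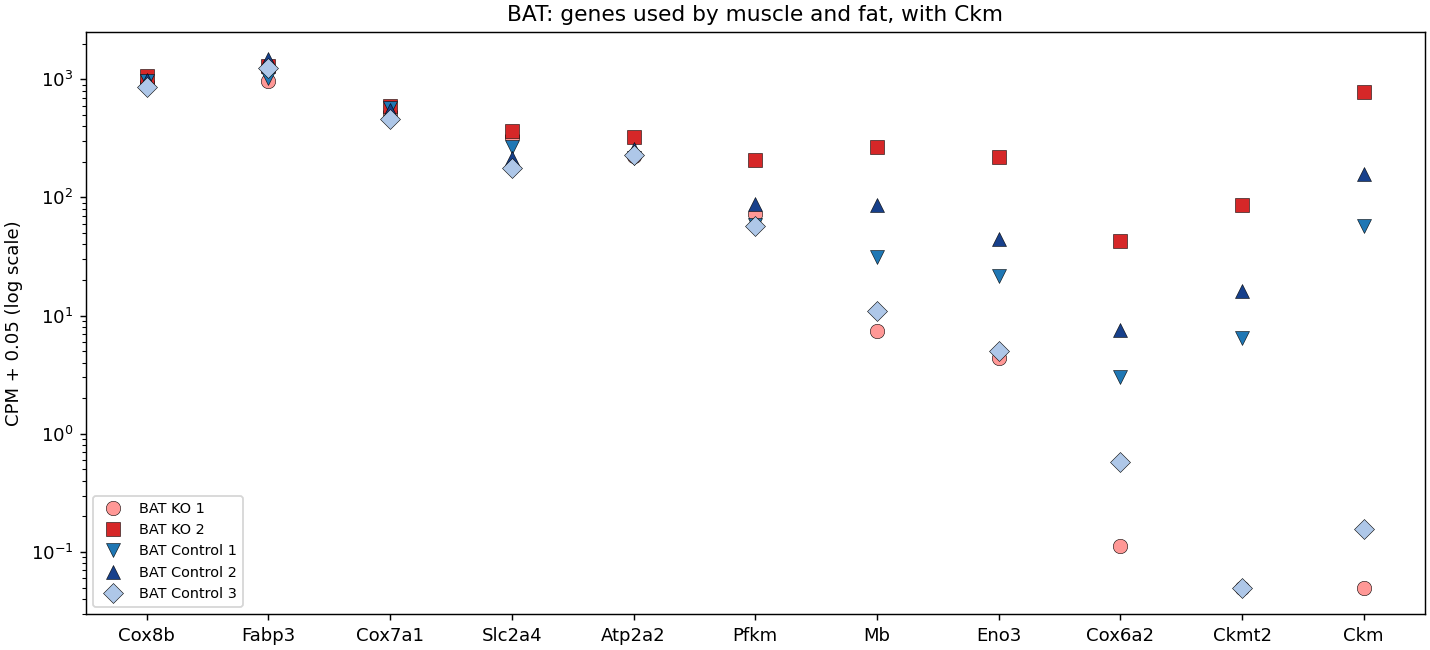
CPM plus 0.05 on a log axis of the 10 genes that muscle and fat both use, and of Ckm, in the 5 BAT libraries (red, KO; blue, control). Cox8b, Fabp3, Cox7a1, Slc2a4 and Atp2a2 lie close together in all 5 libraries, whereas Mb, Eno3, Cox6a2 and Ckmt2 spread in the order of Ckm.

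In isWAT, Myh4, Ckm, Atp2a1 and Tnnt3 were highest in control libraries, at small levels, while Acta1 and Pvalb were highest in KO libraries. Myh4 was 0.0796 and 0.048 CPM in the KO libraries, against 1.31, 2.11 and 0.0819 CPM in the controls, or 3 and 2 reads against 51, 81 and 4. Ckm was 0.0265 and 0 CPM in the KO libraries, against 1.23, 1.46 and 0 CPM in the controls. Atp2a1 was 0.0796 and 0.024 CPM in the KO libraries, against 0.977, 1.41 and 0.041 CPM in the controls. For these genes controls 1 and 2 stood above the other 3 libraries. Tnnt3 had the same order, at 0.318 and 0.0721 CPM in the KO libraries, against 0.848, 1.48 and 0.102 CPM in the controls.

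Myl1 was 39.3 and 29.4 CPM in the isWAT KO libraries, against 31.7, 39.1 and 31.7 CPM in the controls, and so took no part in that order. Acta1 was 25.5 and 22.2 CPM in the KO libraries, against 23.4, 16.3 and 17.7 CPM in the controls. Pvalb was 4.93 and 5.43 CPM in the KO libraries, against 2.78, 4.45 and 4.12 CPM in the controls. Pvalb lay above and Myh4 below all controls, so 2 of the 10 had groups without overlap, where 31.6% of all genes tested in isWAT did. Limma called 0 of the 7 genes that passed the filter, against 0.00701% of all genes, with 0 at an unadjusted p under 0.05. EdgeR and DESeq2 called 0, against 0.00701% and 1.91% of all genes. The changes were 0.39 for Pvalb (SE 0.18, limma adjusted p = 0.42), -0.90 for Myh4 (SE 0.42, adjusted p = 0.42) and -0.80 for Ckm (SE 0.38, adjusted p = 0.423). Myh4 and Ckm passed that filter only through controls 1 and 2.

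In ieWAT none of the 10 genes reached its levels in the high sWAT and BAT libraries. The fast apparatus list without Tpm1 summed to 82.5 CPM in control 3, against 32.3 to 47.1 CPM in the other libraries. Pgam2 of that list was 43.3 CPM in a control and at most 0.944 CPM in the rest. Acta1 was 18.03, 22.1 and 13.4 CPM in the KO libraries, against 16.6, 16.0 and 12.5 CPM in the controls. Myl1 was 21.03, 23.6 and 12.9 CPM in the KO libraries, against 15.4, 15.7 and 21.5 CPM in the controls. Pvalb was 4.97 to 7.0 CPM in the KO libraries, against 5.13 to 8.27 CPM in the controls, and the other 7 genes were at most 1.46 CPM. The groups of all 10 overlapped, where 5.11% of all genes tested in ieWAT did not. Limma called 0 of the 3 genes that passed the filter, against 0.0% of all genes, with 0 at an unadjusted p under 0.05. EdgeR and DESeq2 called 0, against 0.0% and 0.217% of all genes. The changes were 0.21 for Acta1 (SE 0.20, limma adjusted p = 1.0), -0.12 for Pvalb (SE 0.20, adjusted p = 1.0) and 0.10 for Myl1 (SE 0.24, adjusted p = 1.0).

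In eWAT, Myl1 and Pvalb were higher in the libraries labelled KO, whereas Ckm, Myh4 and Atp2a1, the genes that marked the high libraries elsewhere, were not. Myl1 was 23.5, 28.7 and 28.3 FPKM in the libraries labelled KO, against 11.1, 10.99 and 9.83 FPKM in the controls (26.8 ± 2.88 and 10.6 ± 0.711, SD, n = 3 each). Its change was 1.25 (SE 0.10, limma adjusted p = 0.00976) on the log2(FPKM + 1) scale, and the groups did not overlap. Pvalb was 10.2, 8.14 and 8.997 FPKM in the libraries labelled KO, against 3.19, 4.53 and 3.33 FPKM in the controls (9.12 ± 1.05 and 3.68 ± 0.733, SD, n = 3 each). Its change was 1.12 (SE 0.14, limma adjusted p = 0.0122), again without overlap. Acta1 was 7.26, 10.4 and 7.42 FPKM in the libraries labelled KO, against 7.38, 5.59 and 4.99 FPKM in the controls, a change of 0.42 (SE 0.18, adjusted p = 0.146) that did not pass.

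Tnni2 and Mylpf also passed the eWAT filter and had a level in every library. Tnni2 was 2.0402 to 4.3671 FPKM and Mylpf 0.7327 to 2.42 FPKM over the 6 libraries. Both changed in the direction opposite to Myl1, with overlapping groups, and neither passed. The change was -0.438 for Tnni2 (SE 0.202, limma adjusted p = 0.178) and -0.313 for Mylpf (SE 0.241, adjusted p = 0.393). Myl1 and Pvalb were 2 of the 5 genes that passed the eWAT filter. In that depot 14.9% of all 13736 genes tested were called and 10.2% called higher. Without the eWAT library labelled KO 3, neither Myl1 nor Pvalb was called (limma adjusted p = 0.0692 for both) and 0.0855% of all genes were. The adjusted p of Myl1 ranged from 0.00507 to 0.0692 over all settings tried. Of the low genes, Atp2a1 was 0.0254, 0.0295 and 0.0344 FPKM in the libraries labelled KO, against 0.535, 0.121 and 0.242 FPKM in the controls, the only one of the 10 with all KO values below the controls. Ckm was 0.0631, 0 and 0.0879 FPKM in the libraries labelled KO, against 0.504, 0.0384 and 0.802 FPKM in the controls. Myh4 was 0.0074, 0 and 0.02 FPKM in the libraries labelled KO, against 0.267, 0.0033 and 0.162 FPKM in the controls. Controls 1 and 3 were the highest for these genes, and eWAT depth is unknown, so no counting error can be given. Myl1, Pvalb and Myh1 lay above and Atp2a1 below the controls, which makes 4 of 10 without overlap, where 41.2% of all genes tested in eWAT had none.

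Adipocyte genes moved with Myl1 in eWAT. All 6 genes of the adipocyte list, among them Adipoq, the fatty acid carrier Fabp4 and the lipid droplet coat gene Plin1, were called higher in the libraries labelled KO, none was listed at 0, and their sum was 16326, 19001 and 20786 FPKM there, against 8904, 8893 and 7026 FPKM in the controls. Per 1000 FPKM of that sum, a ratio chosen after the values were seen, Myl1 was 1.44, 1.51 and 1.36 in the libraries labelled KO, against 1.25, 1.24 and 1.40 in the controls, so the groups overlapped. Pvalb was 0.627, 0.428 and 0.433 in the libraries labelled KO, against 0.358, 0.509 and 0.475 in the controls, also with overlap. Acta1 was 0.445, 0.545 and 0.357 in the libraries labelled KO, against 0.829, 0.629 and 0.710 in the controls, and lay below all controls on that ratio. The sum was itself higher in the libraries labelled KO, so any gene that rose less than the sum falls on the ratio. Fabp4 was the largest part of the sum, with means of 13522 FPKM in the libraries labelled KO and 6213 FPKM in the controls. The share of all genes without overlap on the ratio was not computed. Bulk RNA cannot tell more cells of a type from more RNA per cell, and the part of adipocyte content in the Myl1 and Pvalb differences was not tested.

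**Figure D4:**
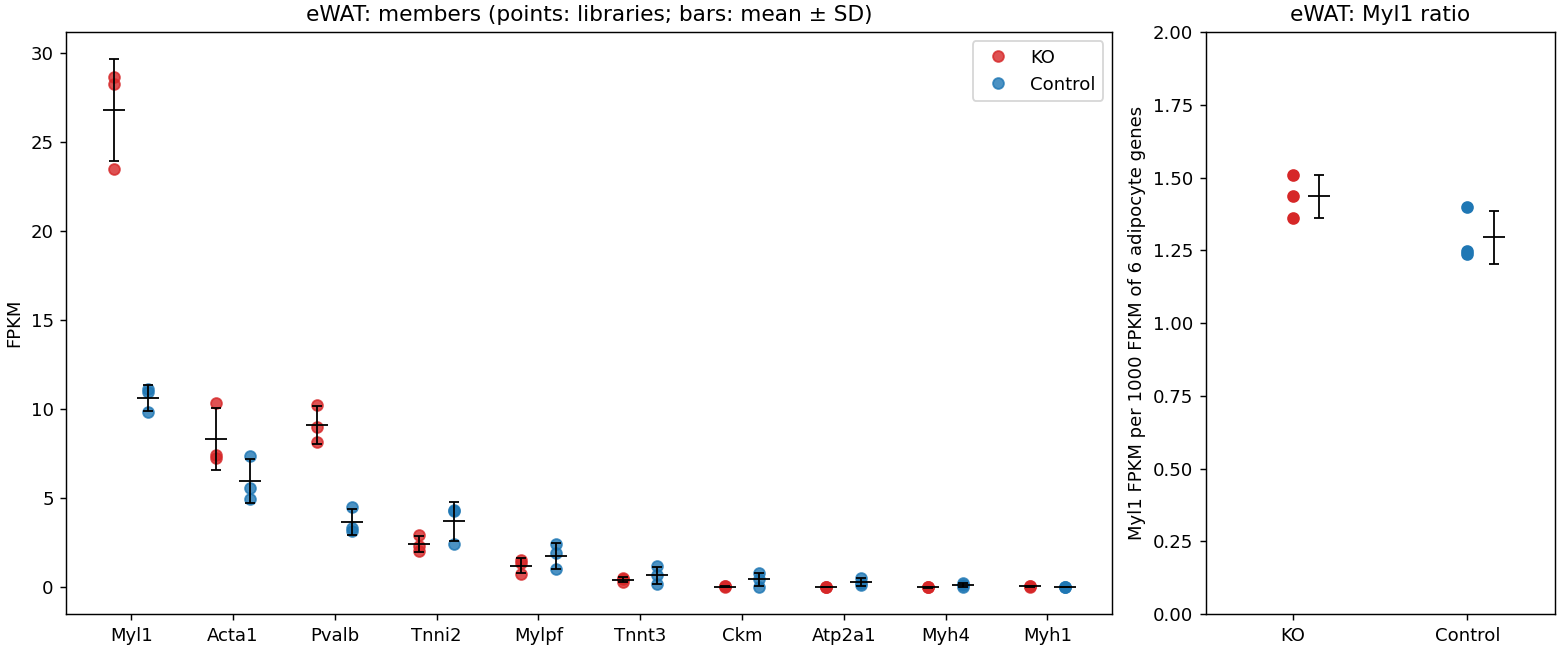
Left, FPKM of the 10 genes in the eWAT libraries labelled KO (red) and the controls (blue), points for libraries and bars for mean ± SD (n = 3 each). Right, Myl1 FPKM per 1000 FPKM of the 6 adipocyte genes. Myl1 and Pvalb are higher in the libraries labelled KO on the left, and the Myl1 ratios on the right overlap.

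Among the genes whose pattern was most like the mean of the 10 across the 22 CPM libraries, by the root-mean-square difference of depot-centred log2(CPM + 1), were Ttn at 0.304, Tnnc2 at 0.323, Mybpc2 at 0.352, Actn3 at 0.414, Tcap at 0.512, Myoz1 at 0.541, Myom2 at 0.681, Pygm at 0.749 and Eef1a2 at 0.765, where the median of all 14286 genes was 2.197. Of these, Ttn, Tcap and Myom2 encode sarcomere scaffold proteins, and 7 of the 9 were already on the fast apparatus list. Among the 10 muscle genes themselves, Tnni2 at 0.200 and Mylpf at 0.293 lay closest to the common mean and Myl1 at 1.392 and Myh1 at 1.45 farthest. Myl1 had a level in every library, and Myh1 did not share the high levels of sWAT KO 2 and KO 3. Ttn was 0, 41.9 and 67.7 CPM in the sWAT KO libraries, against 0.0471, 0 and 0.122 CPM in the controls. In BAT it was 0 and 228 CPM in the KO libraries, against 14.1, 51.4 and 0 CPM in the controls. Ttn, the giant sarcomere spring protein, was thus high in the libraries in which Ckm was high. It was picked for its likeness to the 10 genes in these same libraries, so that is no separate support.

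Over all 10 genes, filter aside, the median log2 change of KO minus control was 4.29 for sWAT and 0.37 for BAT, where the median of all genes tested was -0.05 for sWAT and -0.18 for BAT. It was 0.03 for ieWAT, -0.16 for isWAT and -0.18 for eWAT, beside 0.02, -0.03 and -0.03 over all genes tested. The sWAT and BAT medians describe the libraries named above and were not tested.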

How the data were processed

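The 10 genes and the gene lists were chosen with earlier results of these data known. RNA libraries of 1 ug total RNA were sequenced for 50 cycles, per the labels' protocols. The authors used Salmon, FastQC, MultiQC and DESeq2 1.38.3, per the submitters' processing notes; the sources used here give no role for each, and no genome build, annotation or strand setting. All 5 depot tables are named as FPKM. The 4 deposited tables of ieWAT, isWAT, sWAT and BAT hold CPM: each column sums to 1000000, and at least 99.99% of values came out as whole reads within 0.01 reads. The deposited eWAT table holds FPKM. The other deposited eWAT tables were not used. CPM takes no account of gene length, so myosin chains were divided by the length of their longest principal transcript.

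Symbols came from GENCODE M21 by Ensembl identifier, matching 92.0% of identifiers (96.0% in ieWAT). Only 0.1% of matched identifiers had the same version, so the files' annotation is another release. Identifiers without a symbol held at most 1.45% of a library. Each depot was fitted alone with limma 3.58.1 in R 4.3.3 (lmFit, eBayes with trend and robust, two-sided) on log2(value + 1). A gene was kept if it reached 1 in at least the number of libraries of the smaller group, and p was adjusted by Benjamini-Hochberg over all genes tested, with a threshold of 0.05. The same test was planned for FPKM and was kept for the CPM tables. EdgeR 4.0.16 and DESeq2 1.42.0 were run on the recovered reads as alternatives. Other alternatives were a pseudocount of 0.1, other filters, TMM scaling, eBayes without its options, the replicate number as a block and leaving out each library. The scripts were tested on simulated data.

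All 10 genes are named by value or range, with a fitted change for the 3 of smallest p in each depot. Fitted changes are also given for Tnni2 and Mylpf in eWAT. From each further list, up to 4 genes of highest mean CPM are named, and the 10 most alike genes by the difference defined in the text, of which 1 is not reported here. Eno3, Mb, Ckmt2, Cox7a1, Cox6a2, Tnnt1, Pgam2, Myh6, Nppa and Plin1 fall outside that rule and were picked with their values in view. Gene overlaps on the opposite strand (Gm20388 with Acta1, A930016O22Rik with Ckm, Myhas with Myh1, Prr33 with Tnnt3, Rabep2 with Atp2a1) cannot be told apart without a strand setting. Intervals and the limit of 3 reads behind a 0 cover counting error only.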

Additional observations from a re-analysis of the deposited data

How the results depend on the processing

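Of the 10 genes, 0 were called under every setting tried in ieWAT, isWAT and BAT. The share of all genes called reached 16.8% in BAT, without control 2, where DESeq2 called 5.97%. With DESeq2 it reached 1.91% in isWAT and 0.217% in ieWAT. Leaving out each library in turn moved the count of the 10 genes called between 0 and 9 in sWAT and between 0 and 2 in eWAT. The 9 came without KO library 1, where Myl1 changed by 2.76, Acta1 by 4.64 and Pvalb by 4.99, and the 0 in eWAT without KO library 3 (Myl1 1.21, Pvalb 1.12). The median change of the 10 moved to 0.17 (edgeR) and 0.16 (DESeq2) in ieWAT, to -0.50 and -0.51 in isWAT and to 7.28 and 7.33 in sWAT, and to -0.41 in eWAT with a pseudocount of 0.1. With 1 library left out the median ran from -4.25 to 4.77 in BAT, from -0.27 to -0.04 in eWAT, from 3.06 to 6.49 in sWAT, from -0.29 to -0.10 in isWAT and from -0.04 to 0.07 in ieWAT. Among named genes, Pvalb in ieWAT ran from -0.261 to 0.037, Myl1 in ieWAT from -0.065 to 0.346, Myl1 in BAT from -0.44 to 2.48, Mylpf in BAT from -3.07 to 4.45 and Myh1 in BAT from -3.47 to 4.76. Same-numbered libraries did not deviate together (correlations of deviations from -0.561 to 0.39), so the numbers are not taken as pairs. With the replicate number as a block, 0 of the 10 genes and 0 of all genes were called in eWAT, where 3976 had an unadjusted p under 0.05 (Myl1 1.25 and Pvalb 1.12, limma adjusted p = 0.0627 for both), the BAT change was -0.70 for Mylpf and -1.10 for Myh1, and no other call on the 10 genes changed. The cause of these shifts was not tested. TMM scaling set the median of all BAT genes to 0.002, against -0.183 as deposited. Over all results and settings, 280 values were counted as the same, 9 changed sign, 13 moved, 4 fell short of the threshold and 3 came to pass it. For a named gene, the same means an unchanged direction and side of the threshold. For a count of genes called, it means an equal or similar count. For a median, it means a shift under the SD between libraries of the mean of the 10 genes. Sign changes were counted for named genes only, so a median could change sign and still count as the same. Depth limits the sWAT and BAT zeros to about 3 reads, and eWAT has no known depth.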
